A study of Mus musculus with 6 samples.

Results

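Heat shock chaperones are proteins that bind unfolded or newly made polypeptides and help them to fold, and the genes for many of them are switched on by 1 transcription factor, HSF1. The 10 genes described here are Hsf1 itself, the cytosolic HSP70 genes Hspa1a, Hspa1b and Hspa8, the HSP110 gene Hsph1, the cytosolic HSP90 gene Hsp90aa1, the J-domain cochaperone Dnajb1, the small heat shock protein Hspb1, and the mitochondrial chaperonin genes Hspd1 and Hspe1. They were chosen by name, as the rows that the annotation of GRCm38 gives these symbols, out of 53421 genes in the table of counts. All 10 had enough counts to be tested, among 17214 genes tested in all.

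The counts came from RNA-seq of cultured cerebellar granule cells (GCs) of C57BL/6 mouse pups, whose age the sample labels give as postnatal day 8. Lentivirus brought into the GCs a hairpin RNA against Ythdf2, which encodes a protein that binds mRNAs with N6-methyladenosine (m6A) and speeds their decay, or a hairpin that serves as control. These groups are called shYthdf2 and shCtrl, with 3 libraries each. Both groups were selected with puromycin, so every library came from cells that had met a lentivirus and the drug, and no uninfected cells were analysed here. A single hairpin, number 3, stood for the knockdown (KD). Libraries of each group are numbered 1, 2 and 4. The paper's methods call them biological replicates, and whether each came from its own culture or its own pups is not given in the sources used here.

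The names of the libraries and the titles of the samples contradict each other about which group is the KD, and the names were followed. If the titles were right, every direction given here would turn round. Ythdf2, the targeted gene, had 618, 841 and 628 normalized counts in shCtrl libraries 1, 2 and 4 and 501, 402 and 501 in the shYthdf2 libraries, so that the groups did not overlap and the shYthdf2 mean was 67.3% of the shCtrl mean. The lower level in the libraries named as KD goes with the names and not with the titles. On the log2 scale Ythdf2 differed by -0.57 ± 0.16 (SE, n = 3 per group), with an adjusted p-value of 0.125 in the quasi-likelihood test of edgeR, which missed the threshold of 0.05. The libraries held 17246821 to 21546595 counts. Library 2 of each group stood apart from libraries 1 and 4, and where leaving it out changed a call the value without it is given as well.

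In unstressed cells HSF1 is held inactive, and unfolded proteins release it to bind heat shock elements, inverted repeats of GAA, in the promoters of chaperone genes. Hspa8 and, in neurons, Hsp90aa1 are made at high levels without stress, whereas Hspa1a and Hspa1b are the classical stress-inducible HSP70 genes. HSP70 works in a cycle in which J-domain proteins deliver clients and HSP110 exchanges nucleotide, and HSP60 with HSP10, the products of Hspd1 and Hspe1, folds proteins inside mitochondria.

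Hspa1a and Hspa1b lie beside each other on the minus strand of chromosome 17, each as a gene of 1 exon, from 34969190 to 34972156 and from 34956436 to 34959238 of GRCm38. Their 250 bases before the start of transcription (RefSeq, GRCm38.p6) are shown because the pair is almost the same in sequence while the counts of its members differed, as given further on. Capitals mark the letters GAANNTTC or TTCNNGAA, a heat shock element of 2 units.

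Hspa1a, chr17:34972157-34972406, minus strand: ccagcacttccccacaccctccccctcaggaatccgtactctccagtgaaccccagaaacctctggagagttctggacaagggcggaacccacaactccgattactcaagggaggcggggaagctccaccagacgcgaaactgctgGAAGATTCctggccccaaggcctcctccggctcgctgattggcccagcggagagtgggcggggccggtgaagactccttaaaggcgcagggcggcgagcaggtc

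Hspa1b, chr17:34959239-34959488, minus strand: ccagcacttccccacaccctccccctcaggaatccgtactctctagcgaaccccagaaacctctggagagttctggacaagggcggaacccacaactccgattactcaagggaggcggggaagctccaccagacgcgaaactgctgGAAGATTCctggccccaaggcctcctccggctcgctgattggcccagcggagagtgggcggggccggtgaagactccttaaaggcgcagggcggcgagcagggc

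These stretches differed at 3 of 250 bases, and each held 1 match, 104 bases before the start. The coding sequences were as close. They have 1923 bases in Hspa1a and 1926 in Hspa1b without the stop codon, and the alignment held 8 substitutions and 1 gap of 3 bases, an identity of 99.4%. The last 57 coding bases of Hspa1a and 60 of Hspa1b, with capitals for bases that differ or have no partner, hold 5 of the 11 differing positions.

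Hspa1a, chr17:34970003-34970059, minus strand: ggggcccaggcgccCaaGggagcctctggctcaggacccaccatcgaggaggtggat

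Hspa1b, chr17:34957082-34957141, minus strand: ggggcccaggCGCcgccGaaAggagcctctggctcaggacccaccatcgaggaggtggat

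Heat shock element letters were searched in the window from 250 bases before to 50 after each start, on both strands. RefSeq windows were at hand for 7 of the 10 genes, some with several starts, and those of Hsf1, Hspa8 and Hsp90aa1 were not analysed here. The form of 2 units was found for 6 of the 7 genes and in 7 of their 10 windows, beside 15.1% of all 32851 windows. The windows are not separate sites, since those of Hsph1 overlap and those of Hspa1a and Hspa1b are nearly alike. The form of 3 units has a further GAA or TTC at the same spacing and contains the first form. It was found for Hspd1, Hspe1 and Hsph1, in 4 of the 10 windows, beside 0.603% of all windows. Neither form was in the windows of Dnajb1. Only these exact letters were searched, so imperfect repeats would not have been found in any window. Hspd1 and Hspe1 are transcribed away from each other with overlapping starts and share their elements. The 30 bases around the elements of Hspe1 and of Hspb1 are shown, with those around the first match of Hsph1. The other matches of Hsph1, its form of 3 units included, are outside the stretch shown.

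Hspe1 and Hspd1, chr1:55088053-55088082, plus strand: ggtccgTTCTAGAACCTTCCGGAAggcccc

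Hsph1, chr5:149636351-149636380, minus strand: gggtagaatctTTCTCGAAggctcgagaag

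Hspb1, chr5:135887801-135887830, plus strand: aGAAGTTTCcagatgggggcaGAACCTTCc

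None of the 10 genes passed the threshold of 0.05 in the quasi-likelihood test of edgeR after Benjamini-Hochberg adjustment, beside 0.604% of all genes tested. At an unadjusted p under 0.05 there were 2 of 10, Hspa1b on the lower side and Hsph1 on the higher side, beside 20.1% of all genes. DESeq2 called 1 of 10, Hspa1b, beside 8.88% of all genes, and limma-voom called 0 of 10, with 2 at an unadjusted p under 0.05 and 0.139% of all genes called. The 3 libraries of each group did not overlap for 3 of the 10 genes and for 26% of all genes tested. These were Hsph1 and Hsp90aa1, higher in shYthdf2 as for 12.6% of all genes, and Hspa1b, lower in shYthdf2 as for 13.4%. The log2 fold change was above 0 for 3 members and below 0 for 7, with a median of -0.092 beside a median of 0.0082 over all genes.

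**Figure D1:**
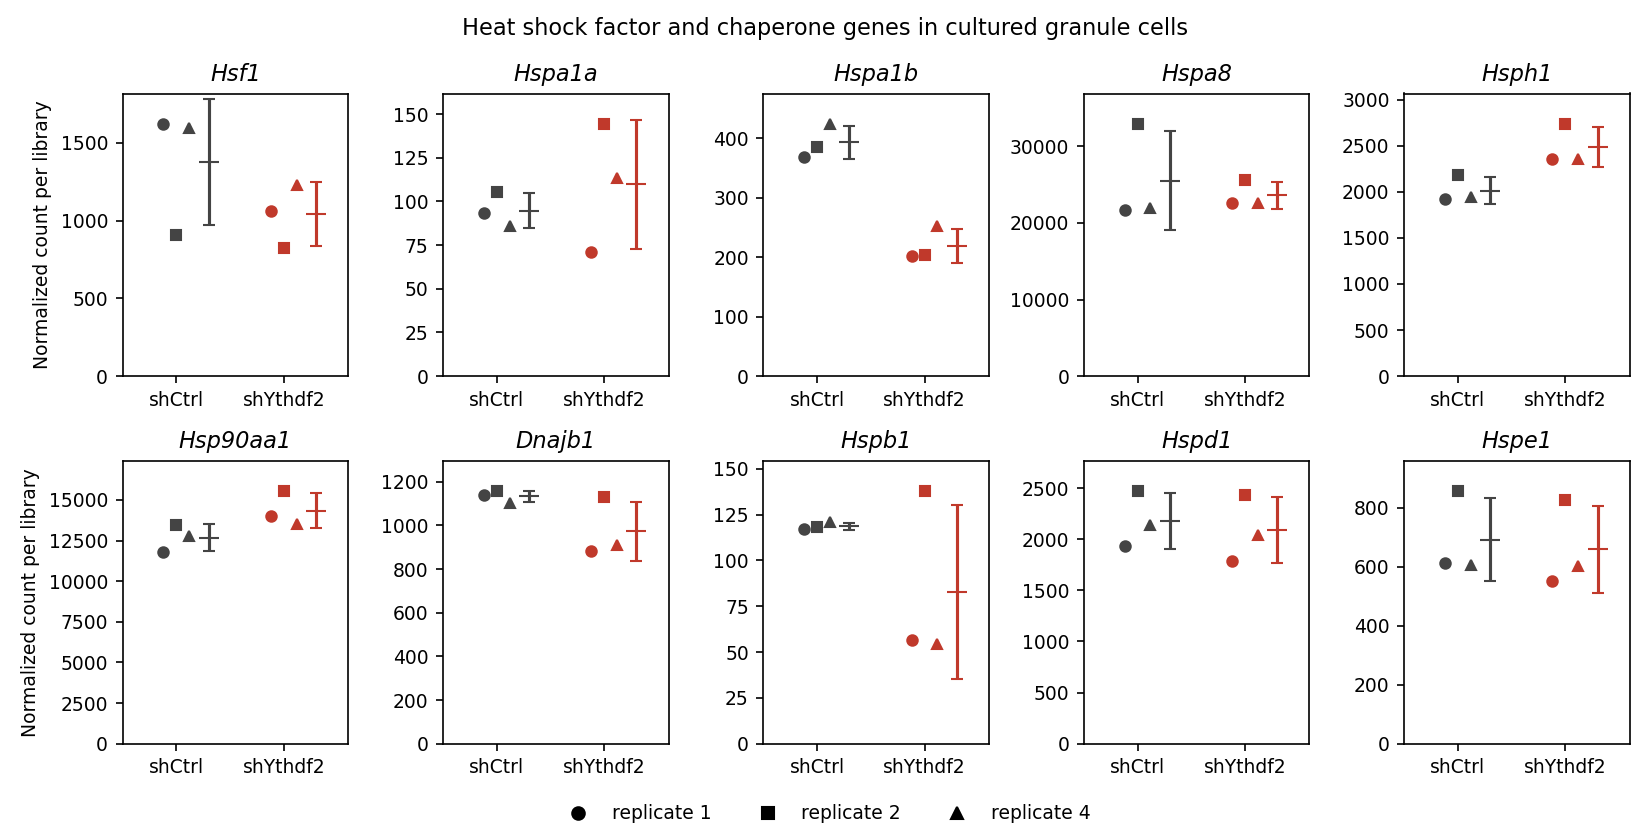
Normalized counts (vertical axes from 0) of the 10 genes in each library, with circles, squares and triangles for libraries 1, 2 and 4, and a bar at the right of each group for the mean ± SD (n = 3). The libraries of the groups are apart for Hspa1b, Hsph1 and Hsp90aa1 only, and library 2 departs from libraries 1 and 4 in both groups for Hsf1 and Hspe1.

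Hsf1 encodes the transcription factor of the response. It had 1623, 911 and 1596 normalized counts in shCtrl libraries 1, 2 and 4, and 1065, 823 and 1232 in the shYthdf2 libraries. Library 2 was the lowest of its group on both sides, and shCtrl library 2 lay within the range of the shYthdf2 libraries. Hsf1 thus had a log2 fold change of -0.40 ± 0.25 (SE), with a 95% interval from -0.98 to 0.17 and an adjusted p of 0.402. Compared within library numbers, the log2 difference was -0.61, -0.15 and -0.37. Without shCtrl library 2 the log2 fold change was -0.63 with an adjusted p of 0.0428, and with a term for library 2 the adjusted p was 0.0385, in fits that called 18.3% and 22.1% of all genes.

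Hspa1b was the member with the widest gap between the groups. Its normalized counts were 369, 386 and 424 in shCtrl and 202, 204 and 252 in shYthdf2, so the highest KD library was below the lowest control library. The shYthdf2 mean of 219 ± 28.2 (SD, n = 3) was 55.7% of the shCtrl mean of 393 ± 28.2. The log2 fold change was -0.84 ± 0.15 (SE), with a 95% interval from -1.19 to -0.50, an unadjusted p of 0.000597 and an adjusted p of 0.0564, just over the threshold. Within library numbers the log2 difference was -0.87, -0.92 and -0.75. With the library number as a block the adjusted p was 0.045, a call in a fit that called 1.35% of all genes, and the adjusted p ranged from 0.00016 to 0.303 over 14 alternatives, 6 of them under the threshold. Without shCtrl library 2 it was 0.0135 and without shYthdf2 library 2 it was 0.0483.

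Hspa1a, its neighbour, gave no such gap. It had 93.1, 106 and 85.7 normalized counts in shCtrl and 71.1, 144 and 114 in shYthdf2, and the shYthdf2 libraries lay on both sides of the shCtrl libraries. The groups differed by a log2 fold change of 0.21 ± 0.28 (SE), at an adjusted p of 0.716, with a 95% interval from -0.45 to 0.87. Its reads were few, 68 to 149 counts per library, which limits what can be seen, and without shYthdf2 library 2 the log2 fold change was -0.042.

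The ratio of Hspa1b to Hspa1a sets the members of the pair side by side within a library. It was 3.96, 3.65 and 4.95 in shCtrl libraries 1, 2 and 4 and 2.84, 1.41 and 2.21 in the shYthdf2 libraries, with no overlap. The mean log2 ratio was 2.05 ± 0.23 (SD) in shCtrl and 1.05 ± 0.51 in shYthdf2. The two-sided exact permutation p was 0.1, the smallest that 3 libraries against 3 can give, and 0.2 after adjustment over the 2 ratios computed.

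Reads of the pair can be hard to tell apart. Of the 100-base windows of the Hspa1a transcript, 56.5% were found in a transcript of another gene, and of those of Hspa1b 49.9%. Matches on either strand counted, and the other genes were Gm10501, Gm20481 and Hspa1l besides the partner. The share found in the partner alone was not computed. How reads with several best places were counted is not given in the sources used here. With the counts of both genes added, the libraries held 462, 491 and 510 normalized counts in shCtrl and 273, 348 and 365 in shYthdf2, again without overlap. For the sum, the log2 fold change was -0.57 ± 0.15 (SE) with an adjusted p of 0.104. Gm20481, a gene on the other strand inside Hspa1a, had 0 counts in all 6 libraries. Since all of it lies within Hspa1a and the kits are not stated to keep strand, this does not show whether it was transcribed.

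**Figure D2:**
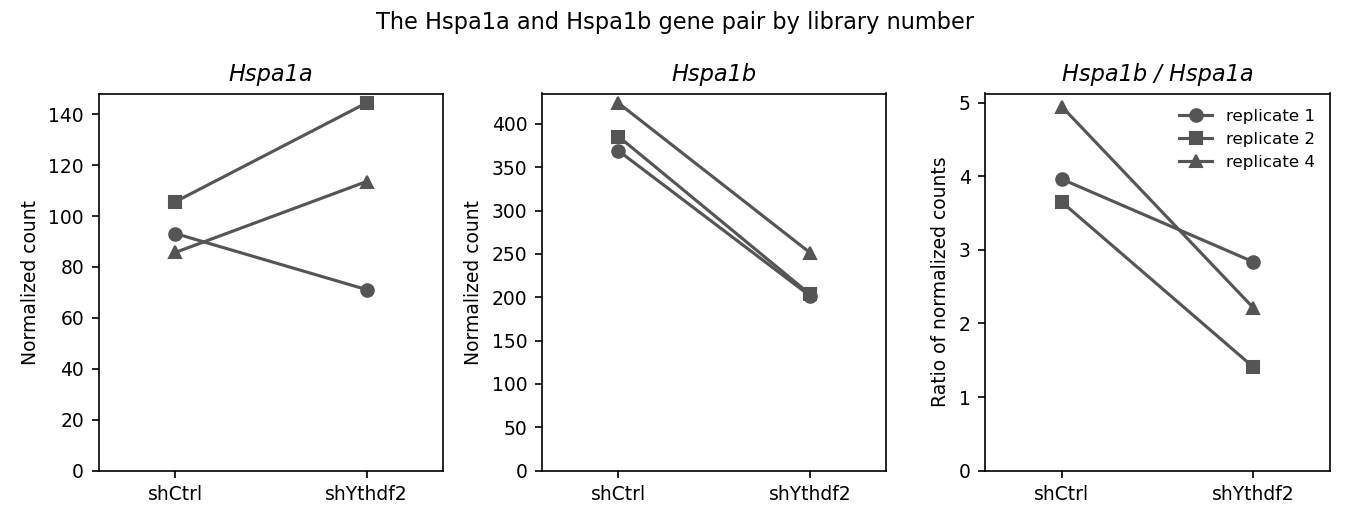
Normalized counts of Hspa1a (left) and Hspa1b (middle) and their ratio (right) in the 6 libraries, with a line joining shCtrl and shYthdf2 libraries of the same number. All 3 lines go down for Hspa1b and for the ratio, while those of Hspa1a go down for library 1 and up for libraries 2 and 4.

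Hspa8 encodes the constitutive HSP70 of the cytosol. It had 21691, 32944 and 21970 normalized counts in shCtrl and 22551, 25594 and 22665 in shYthdf2. Library 2 was the highest in each group, and the other libraries of both groups lay within a narrow range. Its log2 fold change was -0.11 ± 0.18 (SE) with an adjusted p of 0.76, and 0.11 without shCtrl library 2. Of its 100-base windows, 63.4% were also found in transcripts of other genes, a greater share than for any other member.

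Hsph1, the HSP110 that recharges HSP70, was higher in every KD library than in any control library. Its normalized counts were 1920, 2181 and 1939 in shCtrl and 2353, 2737 and 2359 in shYthdf2. Hsph1 had a log2 fold change of 0.30 ± 0.11 (SE), with a 95% interval from 0.055 to 0.55, an unadjusted p of 0.0228 and an adjusted p of 0.174. The difference within library numbers was 0.29, 0.33 and 0.28 on the log2 scale. None of its 100-base windows occurred in another gene. Without shCtrl library 2 the adjusted p was 0.0454, and with a term for library 2 it was 0.0127.

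Hsp90aa1, the inducible cytosolic HSP90, also had groups that did not overlap. It had 11800, 13430 and 12793 normalized counts in shCtrl and 14006, 15535 and 13511 in shYthdf2. The lowest KD library exceeded the highest control library by little. A log2 fold change of 0.18 ± 0.11 (SE) resulted, with a 95% interval from -0.068 to 0.43 and an adjusted p of 0.388, which ranged from 0.0556 to 0.753 over the alternatives.

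Dnajb1, the J-domain partner of HSP70 also called HSP40, was steady in the controls, with 1139, 1157 and 1105 normalized counts. The shYthdf2 libraries held 881, 1129 and 909. Libraries 1 and 4 were below all controls, and library 2 lay among them. Over all libraries the log2 fold change was -0.22 ± 0.12 (SE) with an adjusted p of 0.353, and without shYthdf2 library 2 it was -0.34 with an adjusted p of 0.0749.

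Hspb1, a small heat shock protein that holds unfolded proteins and binds actin, also had shYthdf2 libraries 1 and 4 below all controls, with library 2 above them all. Its 117, 118 and 121 normalized counts in shCtrl were close together, whereas shYthdf2 had 56.5, 138 and 54.1. Hspb1 had a log2 fold change of -0.52 ± 0.37 (SE), at an adjusted p of 0.483. Without shYthdf2 library 2 it was -1.10 with an adjusted p of 0.0384, in a fit that called 4.7% of all genes. Hspb1 rested on 51 to 142 counts per library, and 42.7% of its windows were shared with other transcripts.

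Hspd1 and Hspe1, the HSP60 and HSP10 of mitochondria, had close means in the groups. Hspd1 had 1932, 2468 and 2136 normalized counts in shCtrl and 1788, 2429 and 2043 in shYthdf2. Hspe1 had 613, 855 and 606 in shCtrl and 550, 825 and 601 in shYthdf2. For both genes library 2 was the highest in each group. Hspd1 had a log2 fold change of -0.062 ± 0.14 (SE, 95% interval -0.40 to 0.28) and Hspe1 of -0.070 ± 0.20 (-0.54 to 0.40), with adjusted p-values of 0.844 and 0.878. These intervals leave room for changes of either sign.

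The proportion of the partners was much alike in all libraries. The ratio of Hspd1 to Hspe1 was 3.15, 2.89 and 3.52 in shCtrl and 3.25, 2.94 and 3.40 in shYthdf2, with overlapping groups and an exact permutation p of 1. Their annotated transcripts overlap by 112 bases on opposite strands. The pseudogene Hspd1-ps3 held 75 to 290 counts, and 26.9% of the windows of Hspd1 and 22.4% of those of Hspe1 were found in other transcripts. For Hspe1 these were transcripts of AC117239.2 and of Hspd1 itself.

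**Figure D3:**
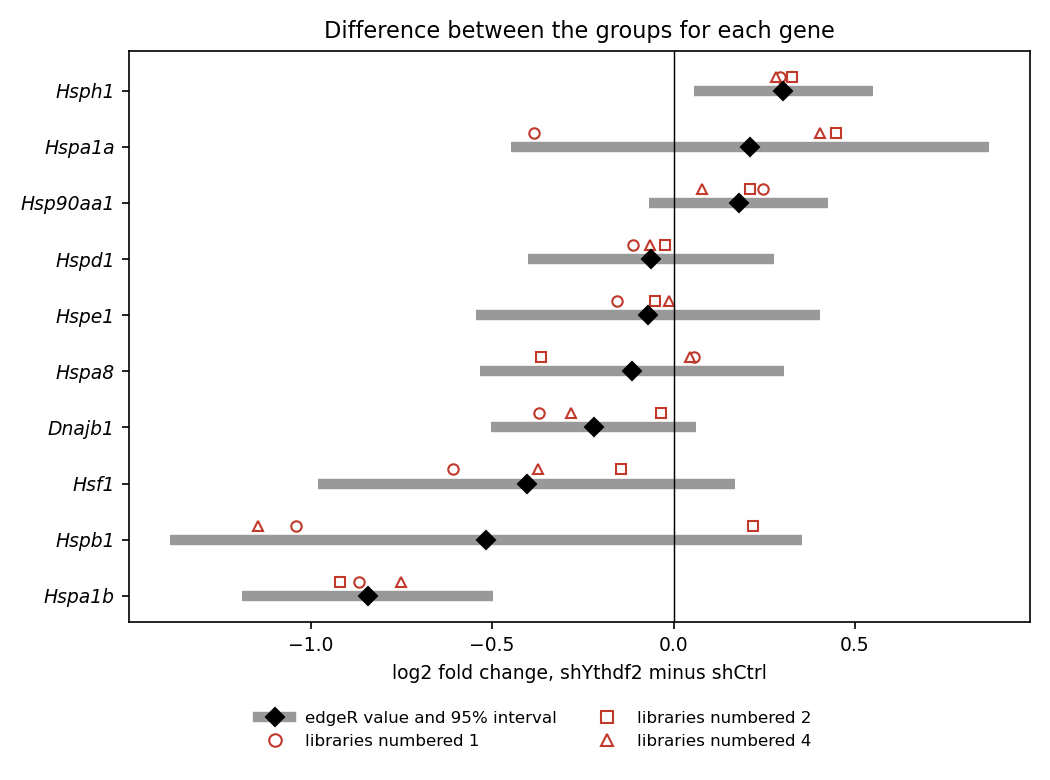
Log2 fold change (horizontal axis, shYthdf2 minus shCtrl) of each gene, with a diamond for the edgeR value, a grey bar for its 95% interval, and open symbols for the difference between libraries of the same number. The intervals of Hspa1b and Hsph1 leave out 0, and the libraries numbered 2 of Hspb1 lie apart from those numbered 1 and 4.

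Per kilobase of annotated exons, the members spanned a wide range of levels in shCtrl. Hspa8 stood first with 5937 ± 1492 normalized counts per kilobase (SD, n = 3), followed by Hsp90aa1 with 3224 ± 209, Hspd1 with 825 ± 102 and Hspe1 with 469 ± 96.3. Dnajb1 (354 ± 8.16), Hsph1 (277 ± 20.0), Hsf1 (194 ± 56.9), Hspa1b (140 ± 10.1), Hspb1 (115 ± 1.87) and Hspa1a (32.0 ± 3.39) came after them. Hsf1 and Hspa1b were the only neighbours in this order whose shCtrl libraries overlapped. The inducible Hspa1a and Hspa1b were far below the constitutive Hspa8 in the control cells. Genes with long or many annotated transcripts are understated on this scale. The order may also depend on how reads with several best places were counted, which is not given. The share of windows found in other genes ran from 0% for Hsph1 to 63.4% for Hspa8.

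Library 2 departed from the others in the same direction in both groups for several members. Against the mean of libraries 1 and 4, its log2 level was higher by 0.49 in shCtrl and 0.52 in shYthdf2 for Hspe1, by 0.28 and 0.35 for Hspd1, and by 0.59 and 0.18 for Hspa8. For Hsf1 it was at -0.82 and -0.48. Hspb1 departed on the KD side alone, at -0.0093 in shCtrl and 1.30 in shYthdf2. What set library 2 apart was not tested.

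Among 13716 other protein-coding genes, those whose log2 levels ran closest to the mean profile of Hspa1a, Hspa1b, Hspa8, Hsph1, Hsp90aa1 and Dnajb1 over the 6 libraries were Klhl21 (Pearson's r = 0.998), Slbp (0.997), Ppp5c (0.994), A430005L14Rik (0.987) and Ccdc12 (0.986). These values describe the libraries, which share groups and the offset of library 2, and are the highest of many. The genes averaged did not share a single profile. Over the 6 libraries, r was -0.87 between Hspa1b and Hsph1 and 0.95 between Hsph1 and Hsp90aa1. The mean profile itself was highest in library 2 of each group, at 0.17 in shCtrl and 0.12 in shYthdf2 on the centred log2 scale.

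The rest of the chaperone network was read from 101 other genes in 8 classes, of which 94 were tested. None passed the adjusted threshold in edgeR, and 2 higher and 17 lower reached an unadjusted p under 0.05, 20.2% of those tested beside 20.1% of all genes. DESeq2 called 10 of them, 1 higher and 9 lower, beside 8.88% of all genes, and limma-voom called 0. With the library number as a block 3 were called, Hspa4l higher and Cdc37 and Dnajc8 lower, beside 1.35% of all genes. Without shCtrl library 2 there were 16 calls, without shYthdf2 library 2 there were 11, and with a term for library 2 there were 33, in fits that called 18.3%, 4.7% and 22.1% of all genes. Fold changes were below 0 on the log2 scale for 62 and above 0 for 32, with a median of -0.092, as for the 10 members.

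Cytosolic HSP90 and cochaperones of HSP70 and HSP90 made up a class of 22 genes. Of these, 18 had a log2 fold change below 0, beside 8463 of the 17214 genes tested in all. An unadjusted p under 0.05 was reached by 9 of them (40.9%, beside 20.1% of all genes in either direction). All 9 were lower, and the median of the class was -0.25. The class as a whole was not tested. Hsp90ab1, its gene for HSP90 itself, was at -0.069 ± 0.12 (SE) with an adjusted p of 0.782. Cdc37, which brings kinases to HSP90, had 2576, 2819 and 2523 normalized counts in shCtrl and 1765, 2082 and 1701 in shYthdf2 (log2 fold change -0.51 ± 0.11 SE, adjusted p 0.0747, and 0.045 with the block, 0.0305 without shCtrl library 2 and 0.0328 without shYthdf2 library 2). Bag2, a cochaperone of HSP70, had 237, 238 and 194 against 72.1, 130 and 64.7 (log2 fold change -1.32 ± 0.29, adjusted p 0.0753, and 0.0385 without shCtrl library 2 and 0.0259 without shYthdf2 library 2). For both genes the groups did not overlap.

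The J-domain proteins were balanced, with 8 above and 8 below 0 and a median of 0.00054. An unadjusted p under 0.05 was reached by 3 of 16 (18.8%, beside 20.1% of all genes in either direction), and these 3 were lower. Dnajb2, a neuronal J-domain protein, had 1474, 1048 and 1473 normalized counts in shCtrl and 599, 756 and 629 in shYthdf2, without overlap (log2 fold change -1.01 ± 0.17 SE, adjusted p 0.0527, and 0.00294 without shCtrl library 2 and 0.0343 without shYthdf2 library 2). Dnajc8, a J-domain protein of the splicing machinery, was at -0.52 ± 0.10 on the log2 scale, with an adjusted p of 0.0585 (0.045 with the block, 0.016 without shCtrl library 2 and 0.0343 without shYthdf2 library 2).

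In a class of 8 other HSP70 and HSP110 genes, 5 were above 0. Hspa4l, an HSP110 like Hsph1, had 1131, 992 and 1118 normalized counts in shCtrl and 1595, 1417 and 1561 in shYthdf2. It was higher in every KD library than in any control library, as Hsph1 was, and its log2 fold change was 0.50 ± 0.10 (SE) at an adjusted p of 0.0683 (0.0452 with the block, 0.0199 without shCtrl library 2 and 0.0387 without shYthdf2 library 2). Hspa14, a ribosome-associated HSP70, was at -0.26 ± 0.10 with an adjusted p of 0.207.

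Of the other heat shock factors, Hsf2 had 871, 952 and 888 normalized counts in shCtrl and 1107, 1135 and 1044 in shYthdf2, with no overlap (log2 fold change 0.28 ± 0.10 SE, adjusted p 0.17, and 0.0493 without shCtrl library 2). Hsf4 was near the floor of detection with 6 to 38 counts per library. Its log2 fold change was -0.98 ± 0.63 (SE) with an adjusted p of 0.429, and -1.44 with an adjusted p of 0.0368 without shCtrl library 2. The small heat shock proteins had 5 of 9 genes tested, 4 of them below 0 with a median of -0.40, and none at an unadjusted p under 0.05. Hspb6 and Cryab were at -0.48 ± 0.22 and -0.47 ± 0.39, with adjusted p-values of 0.272 and 0.55.

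Subunits of the cytosolic chaperonin CCT and of prefoldin were below 0 for 12 of 14 genes (beside 8463 of the 17214 tested in all). Their median was -0.18, and none of the 14 reached an unadjusted p under 0.05. Cct2 was at -0.25 ± 0.12 (SE) and Vbp1 at 0.18 ± 0.082, with adjusted p-values of 0.301 and 0.275. Among the mitochondrial chaperones and proteases 9 of 12 were below 0, beside the same 8463 of 17214. Hspa9, the mitochondrial HSP70, had 2962, 2861 and 2989 normalized counts in shCtrl and 2272, 2443 and 2246 in shYthdf2 (log2 fold change -0.34 ± 0.086, adjusted p 0.102, and 0.0236 without shCtrl library 2). Lonp1, a protease of the matrix, was at -0.36 ± 0.12 with an adjusted p of 0.17 (0.0231 without shCtrl library 2). The chaperones of the endoplasmic reticulum were above 0 for 8 of 14, and Pdia4 and Hyou1 had log2 fold changes of -0.58 ± 0.14 and -0.19 ± 0.10 with adjusted p-values of 0.0974 (0.0459 without shCtrl library 2) and 0.312.

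**Figure D4:**
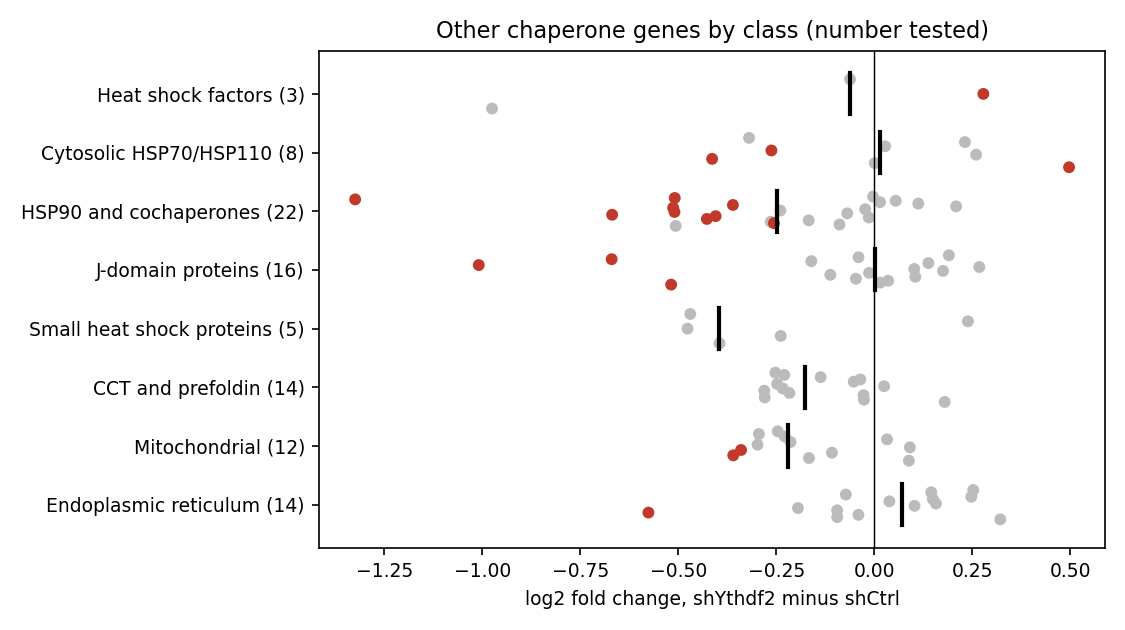
Log2 fold change (horizontal axis, shYthdf2 minus shCtrl) of the 94 other chaperone genes tested, by class, with a vertical bar at the median and red points for an unadjusted p under 0.05. The medians lie between -0.40 for the small heat shock proteins and 0.070 for the endoplasmic reticulum.

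Markers of the labelled cell type were plentiful, since the 12 granule neuron genes summed to 201963 to 214962 normalized counts in shCtrl and 203555 to 207520 in shYthdf2. The summed markers of other cells differed between the groups or in library 2. The 7 Purkinje cell genes summed to 3099 to 3529 in shCtrl and 4350 to 4631 in shYthdf2, and the 6 genes of GABAergic interneurons to 6906 to 7638 and 8638 to 10318. Only 3 of the 7 Purkinje cell genes had a log2 fold change above 0, so most did not follow their sum. Of the 6 interneuron genes, 5 were above 0, and 1 passed the adjusted threshold on the higher side. The 9 oligodendrocyte genes ranged from 5502 to 19713 and from 15044 to 19436, the 10 genes of astrocytes and Bergmann glia from 9123 to 15967 and from 13387 to 14542, the 8 microglial genes from 186 to 851 and from 407 to 1165, and the 11 vascular genes from 2498 to 6255 and from 3185 to 7986, with the highest shCtrl sum in library 2 each time. For each of these types, shCtrl libraries 1 and 4 were below all shYthdf2 libraries. Oligodendrocyte genes had 5789 and 5502 there, against 15044, 19436 and 15417 in shYthdf2. Log2 fold changes were above 0 for 9 of 9 oligodendrocyte genes tested and 9 of 10 of astrocytes and Bergmann glia. The same held for 7 of 7 microglial and 10 of 10 vascular genes tested, and none of these passed the adjusted threshold. The 8 genes of proliferating progenitors summed to 1005 to 1318 and 911 to 1152. P2ry12 of microglia and Cldn5 of endothelial cells were under 5 normalized counts in every library, and no marker was at 0 throughout. In these bulk libraries fewer cells of a type and less RNA per cell cannot be told apart, and the part of other cells in the values of the chaperone genes was not tested.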

How the data were processed

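RNA-seq of 6 libraries was used. The authors deposited counts of reads per gene, whole numbers without normalization. The paper's methods name HISAT, TopHat2, HTSeq and GRCm38, the submitters' processing notes name Bowtie 0.12.2 and mm9, and the library kits differ as well, neither being stated to keep strand, so the origin of the counts is uncertain. Libraries were grouped by their names. Totals were 17246821 to 21546595 counts, which limits the precision of low genes.

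Genes were kept with filterByExpr (minimum count 10, minimum total count 15), leaving 17214, and tested with edgeR 4.0.16 (R 4.3.3) by TMM normalization and the quasi-likelihood test, without a block, with Benjamini-Hochberg adjustment over all genes tested and a threshold of 0.05. Normalized counts are counts scaled with TMM factors to the mean effective library size. Log2 levels used a pseudocount of 1. Alternatives were RLE factors, library size alone, DESeq2 1.42.0, limma-voom (limma 3.58.1), no filter, at least 10 counts in every library, the library number as a block, a term for library 2 and each library left out. Adding Hspa1a to Hspa1b was chosen after seeing the data. Deviations from the group means of libraries with the same number correlated across genes at 0.25, 0.361 and 0.305. Libraries of different numbers were not compared, so these values do not show that the numbers pair the libraries. On simulated counts with 200 genes changed, the fit reported found 49% of 2-fold and 94% of 4-fold changes. Of its calls, 5.3% were false. DESeq2 found 78% and 97%, with 21.9% of its calls false. The simulated counts held no offset of library 2.

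The members and lists were chosen with earlier results of these data known. The genes named are the members, Ythdf2, the genes past the threshold and the 2 with the smallest p of each other class, and the 5 genes closest to the mean profile. Transcripts and coordinates came from GENCODE M21 (GRCm38) and promoters from RefSeq (GRCm38.p6). Python 3.11.15 was used for sequences and plots.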

Additional observations from a re-analysis of the deposited data

How the results depend on the processing

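The count of heat shock genes past the adjusted threshold was 0 in the fit reported and also with RLE factors, library size alone, limma-voom and at least 10 counts in every library. It was 1 (Hspa1b) by DESeq2, without the filter and with the replicate block, 3 with a term for library 2 (Hsf1, Hspa1b and Hsph1), and 0 to 3 with a library left out: 3 without shCtrl library 2, 2 without shYthdf2 library 2 (Hspa1b and Hspb1), and 0 without any of the others. The 104 calls among all genes became 1320 by DESeq2, 24 by limma-voom, 639 without the filter, 232 with the replicate block, 3799 with a term for library 2, and 0 to 3239 with a library left out. The other chaperones, with 0 calls, had 10, 0, 4, 3 and 33 in the same settings and 0 to 16 with a library left out. Ythdf2 (log2 fold change -0.57) passed at -0.58 by DESeq2 and -0.56 with a term for library 2 and did not pass elsewhere, with -0.66 to -0.41 with a library left out. The replicate block changed no other call of the members.

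Directions turned in 6 cases, all with a library left out and none past the threshold. Hspa1a was at -0.042 without shYthdf2 library 2 (range -0.042 to 0.44 with a library left out). Without shCtrl library 2, Hspa8 was at 0.11 (-0.22 to 0.11), Hspd1 at 0.038 (-0.19 to 0.038) and Hspe1 at 0.11 (-0.27 to 0.11), and without shYthdf2 library 1, Hspd1 was at 0.037 and Hspe1 at 0.044. The cause was not tested.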
